A study of Mus musculus with 8 samples.

Results

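The 9 genes described here encode proteins that build the myelin sheath of the central nervous system: Mbp, Mog, Mag, Mobp, Cnp, Mal, Cldn11, Opalin and Ermn. They were taken by gene symbol, and each symbol matched 1 of the 55401 genes of the expression table. All 9 passed the filter on low expression that left 16894 genes for testing. Their transcripts were measured by RNA sequencing in 8 libraries of mouse hypothalamus collected on postnatal day 19. Of these, 4 came from pups gavaged with vehicle and 4 from pups gavaged with PLX3397, from day 9 to day 15, so that 4 days without gavage preceded sampling. Each group held 2 libraries from females (F1, F2) and 2 from males (M1, M2). PLX3397 is an inhibitor of CSF1R, a receptor kinase that microglia (brain macrophages) need to survive. The labels give no genetic alteration and no strain for either group, and the sample source field reads brain where the series' own design text names the hypothalamus. The series asks how microglia shape the development of AgRP neurons, which drive feeding, through perineuronal nets.

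Myelin is made by oligodendrocytes, which wrap their membrane around axons in many turns. In compact myelin the cytoplasm between the turns is squeezed out, and basic proteins such as MBP hold the inner membrane faces together. Non-compact regions, next to the axon and in channels through the sheath, keep their cytoplasm and hold other proteins, among them CNP and MAG. In the mouse brain the sheath is laid down mainly in the first postnatal weeks, and transcription factors of oligodendrocytes such as SOX10 and MYRF drive the genes that encode it. In bulk tissue, fewer oligodendrocytes and less of a transcript in each oligodendrocyte cannot be told apart.

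The upstream sequences of 5 of the genes are shown because the transcript levels of SOX10 and MYRF are given below beside those of the 9 genes. RefSeq (GRCm38.p6, the build named mm10 in the submitters' processing notes) gave start sites for 8 of the 9 genes, all but Mbp. Each line holds the 250 bases before the start site, 5′ to 3′ in the direction of transcription. Capitals mark matches on either strand to the MYRF letters CTGGCAC or CTGGTAC, or to the SOX letters ACAAAG or ACAATG or ACAATA. Mag has 3 start sites in RefSeq, and the sequence shown is the one whose start lies at the end of the deposited gene model.
Cnp (chr11:100574689-100574938, plus strand): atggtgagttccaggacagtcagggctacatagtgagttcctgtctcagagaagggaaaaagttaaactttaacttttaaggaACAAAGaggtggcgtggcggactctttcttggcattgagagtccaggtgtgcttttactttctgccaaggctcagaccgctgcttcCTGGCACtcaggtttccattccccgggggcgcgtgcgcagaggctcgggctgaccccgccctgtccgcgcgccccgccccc
Mag (chr7:30914864-30915113, minus strand): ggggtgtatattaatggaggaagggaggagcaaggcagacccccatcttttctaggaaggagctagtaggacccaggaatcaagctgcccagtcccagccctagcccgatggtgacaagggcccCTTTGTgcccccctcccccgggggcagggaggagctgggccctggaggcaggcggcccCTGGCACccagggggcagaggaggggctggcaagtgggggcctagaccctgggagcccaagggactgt
Mog (chr17:37023399-37023648, minus strand): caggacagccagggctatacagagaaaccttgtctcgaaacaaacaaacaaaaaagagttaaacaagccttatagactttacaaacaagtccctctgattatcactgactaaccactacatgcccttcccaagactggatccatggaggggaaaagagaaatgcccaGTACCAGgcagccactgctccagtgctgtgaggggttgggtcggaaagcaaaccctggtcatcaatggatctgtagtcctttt
Mobp (chr9:120149492-120149741, plus strand): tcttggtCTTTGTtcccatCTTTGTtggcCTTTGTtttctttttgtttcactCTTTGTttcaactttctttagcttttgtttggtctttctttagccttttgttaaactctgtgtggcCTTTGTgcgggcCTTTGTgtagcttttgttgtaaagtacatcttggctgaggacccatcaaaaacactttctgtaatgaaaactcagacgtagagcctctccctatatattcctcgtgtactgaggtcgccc
Mal (chr2:127656696-127656945, minus strand): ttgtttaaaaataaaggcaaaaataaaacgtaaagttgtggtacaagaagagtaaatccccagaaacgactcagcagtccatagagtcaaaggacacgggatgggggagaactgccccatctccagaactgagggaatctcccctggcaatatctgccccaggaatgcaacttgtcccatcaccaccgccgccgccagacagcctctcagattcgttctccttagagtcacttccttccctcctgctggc

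A MYRF match was found in 3 of the 8 genes, Cnp, Mag and Mog, where it lay at bases -81 to -75, -68 to -62 and -83 to -77 from the start site. Counted by upstream window, it was in 4 of the 10 windows of these genes, of which Mag has 3, against 5.92% of 32817 windows of that length. The overlapping windows of Mag share the same matches. A SOX match was found in 5 of the 8, Cnp, Ermn, Mag, Mobp and Opalin, and in 6 of the 10 windows, against 30.5% of all windows. Mobp held 6 SOX matches, every one of them ACAAAG on the opposite strand. Mal and Cldn11 held neither. The E-box letters CAGCTG or CATATG and the TATA letters TATAAA were found in none of the 8, against 16.1% and 12.4% of windows, and the GC box GGGCGG only in Cnp, against 32.7%. These are matches of letters and no record of binding.

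Total counts ran from 54115300 to 67487391 per library, and the 9 genes held between 244 counts (Opalin, PLX3397 M2) and 98337 counts (Mobp, vehicle M2) in a library. Levels are given as CPM (a gene's counts scaled to a fixed library total) adjusted with TMM factors, and in per-length form as the deposited FPKM. A pair of libraries stood apart from their groups. Vehicle F1 carried most of the transcripts of pituitary hormones, whose summed level ran from 27.6 to 4086 CPM over the vehicle libraries and from 29.4 to 40.3 CPM over the PLX3397 libraries. PLX3397 M2 had the lowest Csf1r level. Csf1r itself stood at 76.4, 81.7, 80.3 and 85.7 CPM in vehicle (F1, F2, M1, M2) and at 6.44, 6.04, 5.04 and 1.23 CPM in the PLX3397 libraries in that order. Of 12 microglia markers 9 fell, and their summed level was 301 to 315 CPM in vehicle and 23.5 to 50.5 CPM in PLX3397 libraries.

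Transcripts of the 9 genes were lower on average after PLX3397, with 32.5% to 63.2% of the vehicle mean remaining. Cnp, Mbp and Mag, 3 of the 9, passed the test, and none rose. The other 6 had negative log2 fold changes that did not pass. Together the 9 genes held 0.367%, 0.374%, 0.494% and 0.547% of all counts in vehicle libraries F1, F2, M1 and M2, and 0.275%, 0.177%, 0.209% and 0.123% in the PLX3397 libraries in the same order. The lowest vehicle library was thus above the highest PLX3397 library. The median log2 fold change of the 9 genes was -1.20, beside -0.00 over all genes tested. Of the 16894 genes tested with edgeR's quasi-likelihood test, 1.83% were called lower and 0.308% higher at an adjusted p under 0.05. In 7 of the 9 genes, all but Mal and Opalin, every PLX3397 value lay below every vehicle value, which held for 6.32% of all genes tested.

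**Figure D1:**
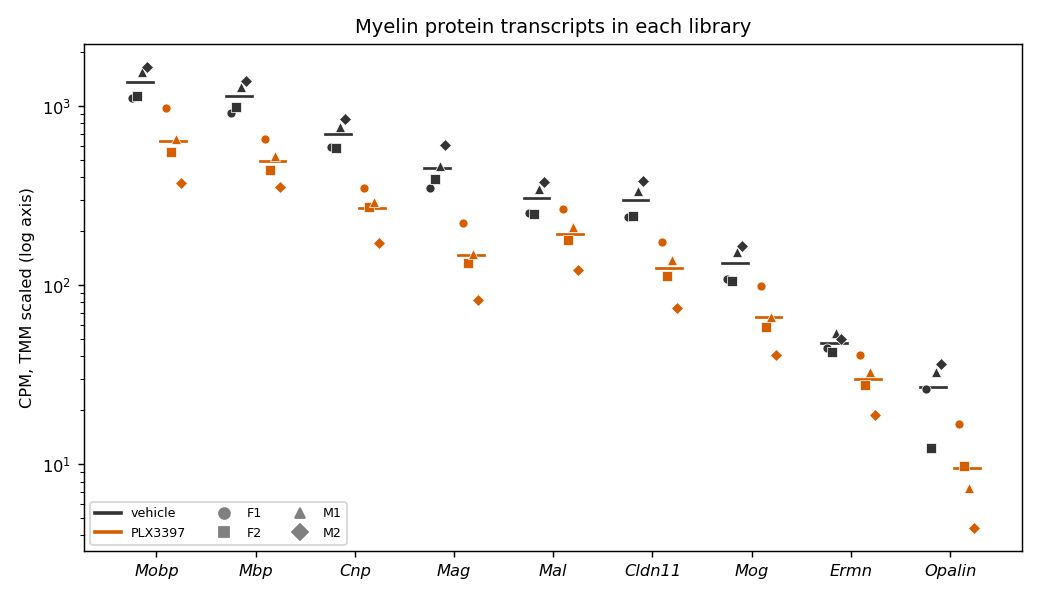
TMM-scaled CPM of each of the 9 genes (log axis) in the 8 libraries, with symbols for the replicate labels, colours for the groups and bars for the group means (n = 4 each). PLX3397 M2 is the lowest library for every gene, PLX3397 F1 is the highest PLX3397 library, and the groups overlap for Mal and Opalin.

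Among the proteins of compact myelin, MBP joins the cytoplasmic membrane faces and is needed for compaction. Mbp (chromosome 18, 82475146 to 82585637, plus strand, mm10) stood at 910, 990, 1276 and 1381 CPM in vehicle libraries F1, F2, M1 and M2. The PLX3397 libraries, listed as F1, F2, M1 and M2 here and below, were at 652, 440, 526 and 354 CPM. The groups did not overlap, and the lowest vehicle library, F1, lay above the highest PLX3397 library, also labelled F1. The log2 fold change was -1.20 ± 0.21 (standard error), with an adjusted p of 0.0387 in edgeR's quasi-likelihood test over all genes tested.

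Mobp (chromosome 9, 120149707 to 120176091, plus strand) encodes a small basic protein of compact myelin. Its level was 1110, 1143, 1540 and 1648 CPM in vehicle (F1, F2, M1, M2) and 973, 554, 657 and 373 CPM in the PLX3397 libraries. Both F1 libraries bordered the gap between the groups, and the log2 fold change of -1.09 ± 0.29 did not pass edgeR's test (adjusted p = 0.128).

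Mal (chromosome 2, 127633226 to 127656695, minus strand) encodes a membrane proteolipid that takes part in sorting lipids and proteins to myelin. It stood at 254, 249, 345 and 378 CPM in vehicle (F1, F2, M1, M2) and at 266, 178, 210 and 121 CPM in PLX3397 libraries. PLX3397 F1 lay above both vehicle females, so the groups overlapped. A log2 fold change of -0.65 ± 0.26 did not pass (edgeR adjusted p = 0.267), and it was -0.41 without PLX3397 M2.

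Cldn11 (chromosome 3, 31149920 to 31164324, plus strand) encodes the claudin that forms the tight junctions between the turns of the sheath. Its levels of 239, 244, 336 and 381 CPM in vehicle libraries F1, F2, M1 and M2 were all above those of 174, 113, 139 and 74.9 CPM in PLX3397 libraries. Its log2 fold change was -1.25 ± 0.28, and it missed the threshold (edgeR adjusted p = 0.0794).

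CNP, an enzyme that acts on cyclic nucleotides, keeps cytoplasmic channels open in non-compact myelin. Cnp (chromosome 11, 100574904 to 100591729, plus strand) stood at 589, 584, 758 and 849 CPM in vehicle libraries F1, F2, M1 and M2. In PLX3397 libraries it stood at 348, 272, 289 and 172 CPM, and the groups did not overlap. Its log2 fold change was -1.36 ± 0.23, and its adjusted p of 0.0315 in edgeR's test was the lowest of the 9 genes.

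MAG is an adhesion molecule of the innermost membrane, facing the axon. Mag (chromosome 7, 30899176 to 30914865, minus strand) stood at 350, 393, 460 and 607 CPM in vehicle (F1, F2, M1, M2) and at 223, 133, 148 and 83.0 CPM in PLX3397 libraries. With 32.5% of the vehicle mean left, it had the lowest remaining share of the 9 genes. Its log2 fold change was -1.63 ± 0.32 (edgeR adjusted p = 0.0489). In the 14 alternative settings besides leaving out 1 library, Mag was called in 9 and Cnp and Mbp each in 12.

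MOG sits on the outermost surface of the sheath and is known as a target of autoantibodies. Mog (chromosome 17, 37010743 to 37023398, minus strand) stood at 108, 105, 153 and 166 CPM in vehicle (F1, F2, M1, M2) and at 99.0, 58.2, 66.7 and 40.7 CPM in PLX3397 libraries. The groups lay apart, with PLX3397 F1 just below vehicle F2. A log2 fold change of -1.004 ± 0.290 did not pass edgeR's test (adjusted p = 0.151).

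Opalin (chromosome 19, 41061710 to 41077113, minus strand) encodes a transmembrane glycoprotein of oligodendrocytes. It stood at 26.2, 12.4, 32.6 and 36.4 CPM in vehicle (F1, F2, M1, M2) and 16.7, 9.74, 7.35 and 4.41 CPM in PLX3397 libraries. Vehicle F2 lay below PLX3397 F1. With -1.54 ± 0.49, its log2 fold change had the widest error of the 9 (edgeR adjusted p = 0.185).

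Ermn (chromosome 2, 58045113 to 58052864, minus strand) encodes ermin, an actin-binding protein of the oligodendrocyte cytoskeleton. It stood at 44.6, 42.4, 53.8 and 50.3 CPM in vehicle (F1, F2, M1, M2) and at 40.9, 27.6, 32.6 and 18.7 CPM in PLX3397 libraries. The groups lay apart by the small gap between vehicle F2 and PLX3397 F1. Its log2 fold change was -0.68 ± 0.22 (edgeR adjusted p = 0.196).

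With 1 library left out, the log2 fold changes of the called genes ran from -1.52 to -1.13 for Cnp, from -1.40 to -1.01 for Mbp and from -1.91 to -1.36 for Mag, while the number of calls ranged from 0 to 6. Leaving out PLX3397 F1, the PLX3397 library with the highest levels, raised the number of genes called lower from 3 to 6. Leaving out PLX3397 M2 left Cnp alone (edgeR adjusted p = 0.0195), and leaving out any of the other 6 libraries left none. The adjusted p over those 6 fits ran from 0.0569 to 0.105 for Cnp, from 0.0569 to 0.124 for Mbp and from 0.0690 to 0.148 for Mag in edgeR's test. Without vehicle F1 and PLX3397 M2 together it was 0.0620, 0.105 and 0.131 for these genes. All log2 fold changes stayed negative in these fits. DESeq2 called 6 of the 9 lower, adding Cldn11, Mog and Ermn. Reads of overlapping genes on the opposite strand cannot be assigned with certainty, since no source used here says whether the libraries keep strand. Among the members this concerns Mbp, which overlaps the pseudogene Rpl21-ps8 (1146 to 1366 counts per library), and Cnp, which overlaps Dnajc7 (9317 to 12028 counts), besides Mog and Ermn, whose partners had at most 20 counts in a library.

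On the per-length scale of the deposited FPKM, Mobp and Cnp ranked highest and Ermn and Opalin lowest in all 8 libraries, while the 5 genes between them changed rank. In vehicle libraries Mobp was highest at 174 ± 34.0 FPKM (SD, n = 4), followed by Cnp at 167 ± 30.4, Cldn11 at 140 ± 32.0, Mbp at 118 ± 22.5, Mag at 97.2 ± 23.6, Mal at 96.5 ± 20.0 and Mog at 68.3 ± 15.6 FPKM. Ermn, at 11.5 ± 1.22, and Opalin, at 7.99 ± 3.12 FPKM, lay far below. Only the step from Mog to Ermn was wider than the summed SDs of its neighbours. In PLX3397 libraries Mobp (81.2 ± 31.6 FPKM) and Cnp (64.7 ± 17.5) again led, and Mal, at 60.7 ± 18.9, came next, ahead of Cldn11 at 58.3 ± 19.4 and Mbp at 50.7 ± 12.97. Mag, at 31.4 ± 12.3, came after Mog at 33.8 ± 12.4 FPKM, with Ermn at 7.17 ± 2.21 and Opalin at 2.81 ± 1.52 last. There the steps from Mag to Ermn and from Ermn to Opalin exceeded the summed SDs. An FPKM counts a whole gene with 1 length, which was 9659 bases for Mbp and 1943 for Mog, so that genes with many isoforms are compared only roughly.

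For 5 of the 9 genes the proportion lay apart between the groups, though no change in proportion passed the test. Mal made up 11.1%, 10.7%, 11.1% and 10.9% of the summed FPKM of the 9 genes in vehicle libraries F1, F2, M1 and M2, and 15.1%, 15.6%, 16.0% and 15.6% in PLX3397 libraries. The 4 PLX3397 shares thus lay above the 4 vehicle shares, at a mean of 15.6 ± 0.353% against 10.96 ± 0.214% (SD, n = 4 each). Mag moved the other way, from 10.5%, 11.5%, 10.1% and 11.9% to 8.65%, 7.97%, 7.68% and 7.33%. The Cnp share went from 19.1 ± 0.503% (SD, n = 4) to 16.8 ± 1.29%. For Mog the share was 7.73 ± 0.288% and 8.59 ± 0.419%, and for Ermn 1.33 ± 0.164% and 1.84 ± 0.0470%. These 5 genes had shares that lay apart between the groups, each with p = 0.0286 in the two-sided exact permutation test. That is the smallest p that 70 arrangements can give, and adjusted over the 9 genes it was 0.0514, so none passed 0.05. A single gene at that p could not have passed, whatever the size of its change. The shares of Mbp (13.4% and 13.2%), Mobp (19.8% and 20.5%), Cldn11 (15.9% and 14.9%) and Opalin (0.891% and 0.690%, vehicle and PLX3397 means) overlapped. Shares sum to 100%, so that they do not move independently. No like count of shares was made for other sets of genes, so the count of 5 has no background beside it.

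**Figure D2:**
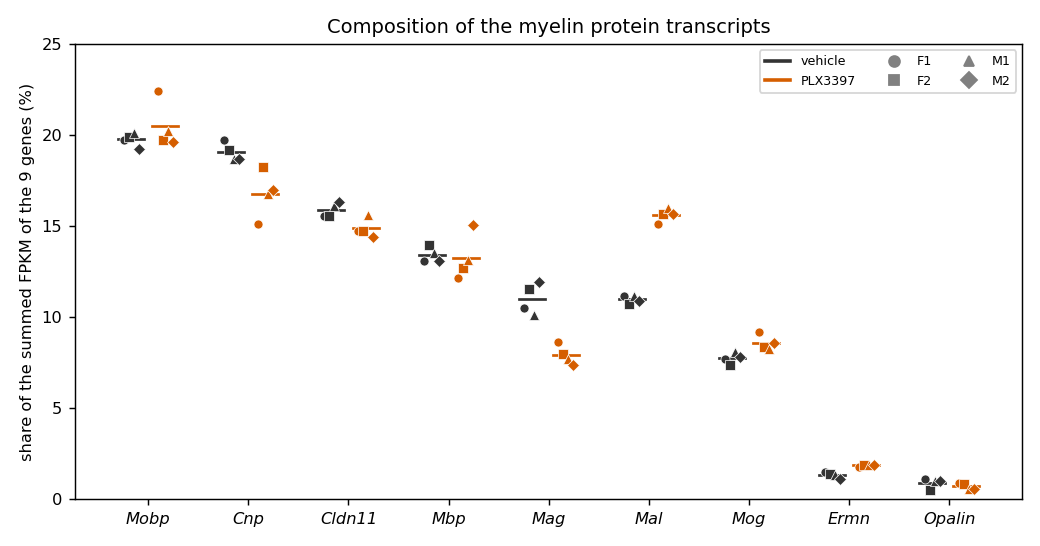
Share of each gene in the summed FPKM of the 9 genes (%, axis from 0) in the 8 libraries, with bars for the group means. The Mal share runs from 15.1% to 16.0% in PLX3397 and from 10.7% to 11.1% in vehicle libraries, and every PLX3397 share of Mag lies below the vehicle shares.

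Ratios between members within a library, which no library scaling can alter, were compared pair by pair. Of the 36 pairs, 20 had log2 ratios that lay apart between the groups, which held for 10.3% of all pairs of tested genes with counts in every library. The pairs of that background were not matched to the members for level or for shared variation between libraries. Ratios of members could lie apart at a small difference, as Mog against Mobp did at 0.099. The widest change was that of Mag against Mal. The log2 ratio was 0.46, 0.66, 0.41 and 0.68 in vehicle libraries F1, F2, M1 and M2 and -0.25, -0.42, -0.50 and -0.54 in PLX3397 libraries, a difference of means of -0.98. All 4 vehicle ratios lay above all 4 PLX3397 ratios. Mag against Ermn differed by -0.96, Cnp against Mal by -0.69, Cnp against Ermn by -0.67, and Mal against Cldn11 by 0.60. Mal against Ermn differed by 0.03, with p = 0.886 in the exact permutation test. Each of the 20 pairs reached p = 0.0286 in the exact permutation test and 0.0514 after adjustment over the 36 pairs, so none passed 0.05. As that p is the smallest that 70 arrangements can give, a single pair could not have passed, whatever the size of its change.

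Counted by gene, Mag was lower relative to 6 of the other 8 members and higher relative to none, among ratios that lay apart. Cnp was lower relative to 4 and higher relative to none. Mal was higher relative to 6 and Ermn relative to 5, and neither was lower relative to any. Opalin had no ratio that lay apart. These counts overlap, because each pair enters under both of its genes.

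**Figure D3:**
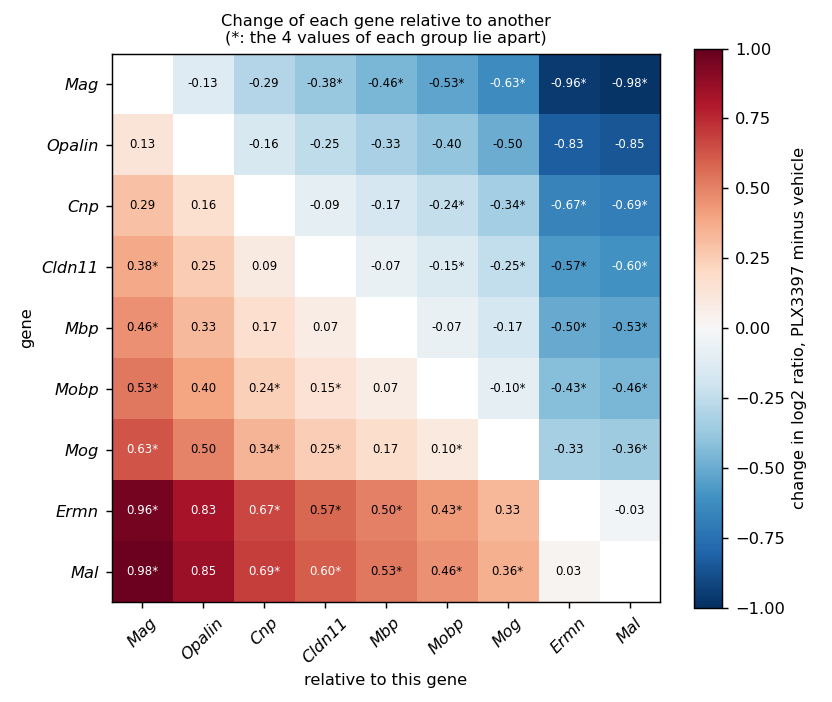
Difference of the mean log2 ratio of 2 genes between PLX3397 and vehicle libraries (row gene relative to column gene, n = 4 each), ordered by fold change, with an asterisk where the 4 values of each group lie apart. Mag and Cnp are lower relative to Mal (-0.98 and -0.69) and to Ermn (-0.96 and -0.67), and Mal and Ermn differ from each other by 0.03.

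The sexes were then compared, first within each treatment. In vehicle libraries the male mean was above the female mean for all 9 genes, by a ratio of 1.20 to 1.79, and in PLX3397 libraries the female mean was above the male mean for all 9, by 1.24 to 2.24. Each of these means rests on 2 libraries. Over all 8 libraries with treatment as a covariate, females against males gave log2 fold changes between -0.09 and 0.14, and none of the 9 genes was called by edgeR (adjusted p from 0.975 to 0.998, 0 at an unadjusted p under 0.05) or by DESeq2. In that comparison 0.0592% of all genes tested were called.

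Within males all 9 log2 fold changes were negative, from -1.02 ± 0.28 for Ermn to -2.55 ± 0.45 for Opalin. Cnp (-1.80 ± 0.24, edgeR adjusted p = 0.0232), Mbp (-1.59 ± 0.24, 0.0310) and Mag (-2.21 ± 0.35, 0.0404) fell, beside 1.35% of all genes called lower in males. Within females they ran from -0.18 ± 0.28 for Mal to -1.06 ± 0.34 for Mag. None was called by edgeR in females, where 0.278% of all genes were called lower, while DESeq2 called 2, Cnp and Mbp. An unadjusted p under 0.05 in edgeR's test was reached by 4 of the 9, beside 1615 of the 16894 genes tested. The difference of the effects, females minus males, was positive for all 9 genes, from 0.68 ± 0.39 for Ermn to 2.00 ± 0.61 for Opalin. In edgeR's test of that difference none passed (adjusted p from 0.790 to 0.846), beside 0.0770% of all genes called. At an unadjusted p under 0.05 were 6 of the 9, beside 1015 of the 16894 genes tested. DESeq2 called Opalin alone (adjusted p = 0.0298). An effect that differs between the sexes was thus not shown by edgeR. PLX3397 F1 and M2, the libraries with the highest and lowest levels of their group, are of different sexes. Calls within males ran from 0 to 4 when 1 library was left out. Without a male library its group holds 1 male, which is assumed to vary like the other groups. None was left without vehicle F1, M1 or M2, and 1 without PLX3397 M2 or without vehicle F2.

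**Figure D4:**
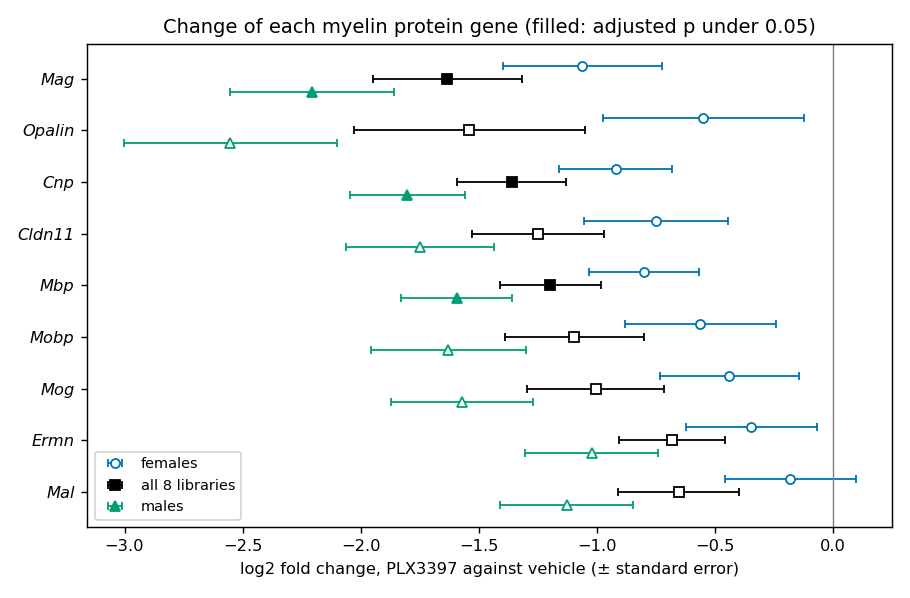
Log2 fold change of each gene, PLX3397 against vehicle, with standard errors from edgeR, over all 8 libraries (squares), within females (circles) and within males (triangles), with filled symbols where the adjusted p is under 0.05. For each gene the male value lies below the female value, and only Mag, Cnp and Mbp have filled symbols.

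The members varied together from library to library. After the mean of each group was taken out, the Pearson r of log2 CPM between 2 members over the 8 libraries had a median of 0.965 over the 36 pairs. It was lowest for Opalin with Mbp, at 0.786, and highest for Cldn11 with Mal, at 0.999. All of these values share the same libraries. Among genes outside the 9, with a mean FPKM of at least 1, those most like the members' mean profile after the group means were removed were Hapln2 (r = 0.985), Tmem88b (0.985), Cdc42ep2 (0.984), Arhgap23 (0.983) and Enpp2 (0.983), followed by Gltp, Plekhh1, Ttyh2, S100a16 and Drc3. With the group means kept in, over 8 libraries, they included Plekhh1 (r = 0.995), Tmem88b (0.994), Arhgap23 (0.993), Elovl7 (0.993), Tspan2, Zeb2, Fa2h, Slain1 and Ptprd. Hapln2, a link protein at nodes of Ranvier, followed the members within groups without their difference between groups. It stood at 6.85, 7.12, 9.50 and 10.98 CPM in vehicle (F1, F2, M1, M2) and at 10.9, 7.13, 8.63 and 5.11 CPM in PLX3397 libraries, with a log2 fold change of -0.10 ± 0.26 (edgeR adjusted p = 0.890).

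Other genes of the sheath and of oligodendrocytes were read from lists. Of 22 further genes of myelin sheath proteins, 10 fell and none rose, with a median log2 fold change of -0.79. Those with the smallest p were Nfasc (-1.10 ± 0.08, edgeR adjusted p = 0.00306), whose glial form anchors the paranode, Cd9 (-1.26 ± 0.12, 0.00460), a tetraspanin that other cells also express, Bcas1 (-2.61 ± 0.32, 0.00958) and the connexin gene Gjc3 (-1.34 ± 0.20, 0.0218). Bcas1 marks oligodendrocytes that have begun to form myelin and lay at 162, 121, 214 and 256 CPM in vehicle (F1, F2, M1, M2) and at 43.4, 24.1, 32.8 and 19.9 CPM in PLX3397 libraries.

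Of 18 transcription factor genes of the oligodendrocyte lineage, 7 fell and none rose (median -0.68). Myrf, which drives myelin genes, stood at 77.3, 82.5, 107 and 117 CPM in vehicle (F1, F2, M1, M2) and at 38.2, 28.5, 33.1 and 19.9 CPM in PLX3397 libraries. Its log2 fold change of -1.67 ± 0.23 passed (edgeR adjusted p = 0.0140). Zfp488 (-1.72 ± 0.13, edgeR adjusted p = 0.00306), Sox10 (-1.32 ± 0.16, 0.00951) and Sox8 (-1.23 ± 0.17, 0.0145) also fell. Of 9 genes whose products carry, translate or splice myelin mRNAs, Fyn (-0.69 ± 0.06, edgeR adjusted p = 0.00404), a kinase that releases Mbp mRNA for translation, and Qk (-0.60 ± 0.08, 0.0117), an RNA-binding protein, fell. The median of that list was -0.06, and none rose.

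By stage of the lineage, 6 of 8 markers of newly formed oligodendrocytes fell (median -1.07). They included Cemip2 (-1.02 ± 0.06), Gpr17 (-2.55 ± 0.24), Itpr2 (-1.04 ± 0.10) and Rras2 (-1.10 ± 0.12), with edgeR adjusted p from 0.000993 to 0.00590. Gpr17, a receptor gene of cells between precursor and myelinating oligodendrocyte, stood at 327 to 427 CPM in vehicle and 37.5 to 78.5 CPM in PLX3397 libraries. Of 9 precursor markers 2 fell (median -0.66), Neu4 (-5.13 ± 0.49) and Vcan (-1.27 ± 0.12). Pdgfra, the growth factor receptor that defines precursors, had a log2 fold change of -0.21 ± 0.07 (edgeR adjusted p = 0.182). Of 20 markers of mature oligodendrocytes 3 fell and 1 rose (median -0.63). Adamts4 (-2.04 ± 0.33, edgeR adjusted p = 0.0261), Enpp2 (-1.06 ± 0.17, 0.0247) and Car2 (-0.41 ± 0.07, 0.0379) fell. Apod, the gene of a lipid carrier that other cells also express, rose by 0.43 ± 0.04 (0.00460). Bcas1 stands in the lists of sheath and newly formed cells, and Hapln2, Anln, Gjb1 and Tspan2 are among those that stand in the lists of sheath and mature cells. The list of transcription factors also shares a gene with each of the lists of precursor, newly formed and mature cells.

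**Figure D5:**
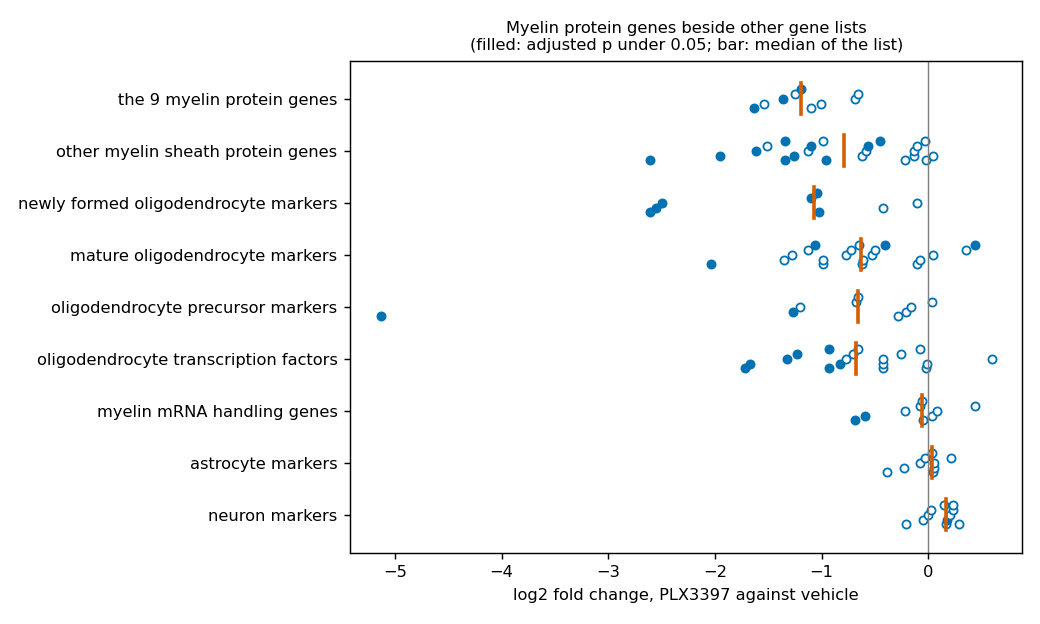
Log2 fold change, PLX3397 against vehicle over 8 libraries, of every tested gene in 9 lists, with filled points where edgeR's adjusted p is under 0.05 and a bar at each list's median. The 9 myelin protein genes (median -1.20) lie between -1.63 and -0.65. Astrocyte markers lie between -0.39 and 0.21 (median 0.04) and neuron markers between -0.21 and 0.29 (median 0.17).

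These counts were smaller without vehicle F1 and PLX3397 M2, except for the precursor markers and the genes of mRNA handling, which were unchanged. Then 4 of the 22 sheath genes, 4 of the 18 transcription factors, 3 of the 8 markers of newly formed cells, 2 of the 9 precursor markers and 1 of the 20 mature markers fell, beside 2 of the 9 genes of mRNA handling. With 1 library left out, the sheath genes that fell numbered 3 to 10, fewest without PLX3397 M1, vehicle F2 or vehicle M1, and the transcription factors 2 to 7. Of the 8 markers of newly formed cells 6 fell in each of these 8 fits. Mature markers that fell numbered 0 to 8 in the same fits. With DESeq2 over all 8 libraries, 7 of the 8 markers of newly formed cells and 11 of the 20 mature markers fell.

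Markers of other cells were read in the same way. None of 9 astrocyte markers was called by edgeR over all 8 libraries, where 2 had an unadjusted p under 0.05, and 1 fell without PLX3397 F1 and 1 with DESeq2. Their summed level was 3184 to 3814 CPM in vehicle and 3400 to 3672 CPM in PLX3397 libraries. Of 11 neuron markers 1 rose (Nefl), of 6 endothelial markers 1 rose (Flt1), and of 7 meningeal fibroblast markers 2 rose (Slc6a13 and Aldh1a2). In these lists 7, 1 and 5 markers had an unadjusted p under 0.05 in edgeR's test, in either direction. Of all 16894 genes tested, 2743 had such a p in that comparison. With DESeq2 5 neuron, 1 endothelial and 5 meningeal markers rose. With any 1 library left out, no neuron or endothelial marker was called, and 0 to 3 meningeal markers rose. The summed meningeal level was 252 to 352 CPM in vehicle and 350 to 495 CPM in PLX3397 libraries. The part of these cells in the levels of the 9 genes was not tested. No pituitary, erythrocyte or choroid plexus and ependymal marker was called by edgeR over all 8 libraries, where 2, 4 and 0 of them had an unadjusted p under 0.05. Of the 8 pituitary hormone genes DESeq2 called 3 lower, and edgeR called 2 lower without vehicle F2. Several of the 9 genes also have a place in Schwann cells, which make peripheral myelin. Of 7 markers of those cells, 3 reached the expression filter, Pmp2 had no count in any library, and the summed level was 14.7 to 24.3 CPM in vehicle and 18.4 to 22.9 CPM in PLX3397 libraries. None of the 3 tested was called.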

How the data were processed

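The authors deposited 1 table with counts (whole numbers) and FPKM for every gene and library, per the file headers. In the deposited FPKM columns a count of 0 is listed at 0.0001. Per the submitters' processing notes, HISAT2, StringTie, bcl2fastq 2.0, limma, DESeq2 and mm10 were used, with no roles stated; for the counting tool and strand setting the sources used here give nothing. Ribosomal RNA was removed and cDNA primed at random, per the labels.

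Genes whose mean FPKM reached 0.5, 16894 in number, were tested with edgeR 4.0.16 (R 4.3.3), using the quasi-likelihood F-test on counts with TMM scaling, two-sided, with sex as a covariate, Benjamini-Hochberg adjustment over all genes tested and a threshold of 0.05. A second model of 4 groups gave the effects in each sex and the difference between them. Standard errors were derived from each fold change and its F statistic. "Fell" and "rose" stand for an adjusted p under 0.05. Ratios between members and their shares were compared with exact permutation tests (scipy 1.17.1), 4 libraries against 4. Limma 3.58.1 and DESeq2 1.42.0 were alternatives, as were other filters, scalings and covariates and leaving out libraries. The recount of the other lists under these settings and the background of gene pairs were chosen after seeing the data. The fit was tested on simulated counts.

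The 9 genes and the lists were chosen with earlier results of these data known. Named are all 9 genes, Myrf and Csf1r, up to 4 genes with the smallest p in a list, and the 10 genes most like the members in each form, apart from genes within this rule that are not reported here. Of the lists of other cells only counts are given. The labels treat the libraries as separate samples, and where they do not name separate animals the p-values measure only the spread between these libraries. No pair of libraries in a group agreed within sampling noise. The labels name no sequencing batch. Counting error is small at these depths.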

Additional observations from a re-analysis of the deposited data

Results flagged for a closer look

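In 12 of 108 groups of 4 libraries, 1 library lay farther from the other 3 than Dixon's 95% critical value for 4 samples allows. The groups examined were the CPM level and the share of each member and each log2 ratio of the members, in each treatment. None of the flags fell on a CPM level. Chance gives about 1 group in 20, and ratios that share a gene are not independent. Vehicle F2 stood apart in Opalin, with a share of 0.501% of the summed FPKM and log2 ratios to Opalin of 6.32 for Mbp, 6.53 for Mobp, 5.56 for Cnp and 4.33 for Mal. It also stood apart in the log2 ratio of Mbp to Mog, at 3.23. PLX3397 M2 stood apart in the log2 ratios of Mbp to Mal (1.55), Cldn11 (2.24) and Ermn (4.24). PLX3397 F1 stood apart in the log2 ratios of Mobp to Mal (1.87) and to Ermn (4.57) and of Mal to Ermn (2.70).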

How the results depend on the processing

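All 9 genes kept a negative log2 fold change over 8 libraries in every setting tried. The number called lower, 3, became 6 with DESeq2, 0 without vehicle F1 and PLX3397 M2, and 0 to 6 with 1 library left out. It was 2 under each of the 3 other expression filters, where Mag was no longer called. It was 4 without the sex covariate and 3 under the other scalings and limma. With the replicate label as a block (replicate block) it was 0. Same-labelled libraries of the groups correlated at 0.0771, 0.101, 0.0830 and 0.0296 in their deviations, and those with different labels from -0.0976 to 0.0885. PLX3397 F1, F2 and M2 each correlated best with the vehicle library of the same label, and PLX3397 M1 with vehicle M2 (0.0885). Whether the labels pair the samples is thus not settled, and the main fit did not pair them. Over all genes tested, 310 lower and 52 higher calls became 69 and 10 with the replicate block, 756 and 343 with DESeq2, 105 and 18 without vehicle F1 and PLX3397 M2, and 117 to 328 lower calls with 1 library left out. With the replicate block 4 of the 22 sheath genes, 1 transcription factor, 6 markers of newly formed cells and 5 microglia markers fell, and no mature marker did. Within males the 3 calls became 9 with DESeq2 and 0 to 4 with 1 library left out. Within females the count of 0 became 2, and for the difference between the sexes 1, with DESeq2. With 1 library left out the log2 fold change in females ran from -0.50 to 0.081 for Mal, positive without PLX3397 F2, and from -0.99 to 0.095 for Opalin, positive without vehicle F1; these fits leave 1 female in a group, assumed to vary like the other groups. The cause was not tested. Pairs with ratios apart numbered 20 to 25 and shares apart 5 to 6 with 1 library left out. Leaving out a library cannot make groups that lie apart overlap, so these counts could only stay or rise and are no test of stability. The lowest count of a member in a library was 244.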
